A study of Homo sapiens with 7 samples.

Results

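POU5F1, NANOG, LIN28A, LIN28B, SALL4, ZFP42, PRDM14 and DPPA4 are genes of pluripotent cells and of the early germ line, and some of them are also known as oncofetal genes. These 8 of the 20162 protein-coding genes of GENCODE 44 on hg19 were chosen by name, with no measured value in the rule. Each gene was read through its window, which is the gene body with 10 kb on each side. All deposited intervals in the windows were used, weak ones included. The study cultured HCT116 cells, an established human colorectal carcinoma line, at 200000 cells per well of a 96-well plate, sheared the crosslinked chromatin in the plate for 6 min in 100 µl with the PIXUL ultrasound instrument, and sequenced 7 ChIP libraries. Lists of 6 libraries were used, with antibodies against H3K4me1, H3K4me3, H3K9Ac, H3K27me3, H3K36me3 and CTCF. The library against H3K27Ac was not analysed here. The cells of all libraries were of the same line, and the paper's ChIP-seq methods describe no treatment of them. There was 1 library per mark, so the values have no replicate error and no test between groups was possible. The lists give no sequencing depth, and they hold 16112 (H3K4me3) to 55270 (H3K27me3) intervals. Read against the line's label, 7 of 8 markers of colon epithelium had an H3K4me3 interval within 1 kb of the transcription start site (TSS), VIL1 being the exception, beside 61.6% of all coding genes. Of the blood markers 0 of 3 had such an interval and of the fibroblast markers 1 of 3 (COL1A1, fold enrichment 9.21). The marker lists were chosen with earlier results of these data known, so these counts are a description and no test of the label.

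POU5F1 (OCT4) and NANOG encode transcription factors that hold embryonic stem cells in the pluripotent state. SALL4, ZFP42 (REX1) and PRDM14 encode zinc finger proteins of the same cells, and DPPA4 encodes a chromatin-associated protein of early development. LIN28A and LIN28B encode RNA-binding proteins that block the maturation of let-7 microRNAs. In most adult tissues these genes are silent, and oncofetal genes such as LIN28B and SALL4 are switched on again in some tumours. H3K4me3 and H3K9Ac mark the promoters of active genes, H3K4me1 marks enhancers and the flanks of promoters, H3K36me3 marks the bodies of transcribed genes, and H3K27me3 is laid down by Polycomb complexes at repressed genes. CTCF is a DNA-binding protein of insulators and loop anchors.

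The windows of the 8 genes held 46 intervals, and 21 of them passed the limits of the Methods. These limits were a q-value below 0.001 with a fold enrichment above 2 for H3K4me1 and H3K27me3, and a q-value below 1e-10 with a fold enrichment above 5 for the other marks. The Methods state the stricter limits for histone marks, and they were applied to CTCF as well, for which no limits are stated. Of the 21 intervals, 6 were CTCF intervals. A further 7, all of them H3K4me1, H3K4me3 or H3K9Ac, lay within 1 kb of the TSS of another coding gene, namely CCHCR1 and TCF19 next to POU5F1 and DHDDS next to LIN28A. The other 8 were H3K4me1 intervals. Within 1 kb of the genes' own TSS there were 6 intervals, and 2 of them passed the limits, both H3K4me1, at LIN28A and SALL4. An H3K4me3 or H3K9Ac interval past the limits was thus found at the TSS of 0 of the 8 genes, where 59.1% of all coding genes had such an H3K4me3 interval and 58.5% such an H3K9Ac interval.

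**Figure D1:**
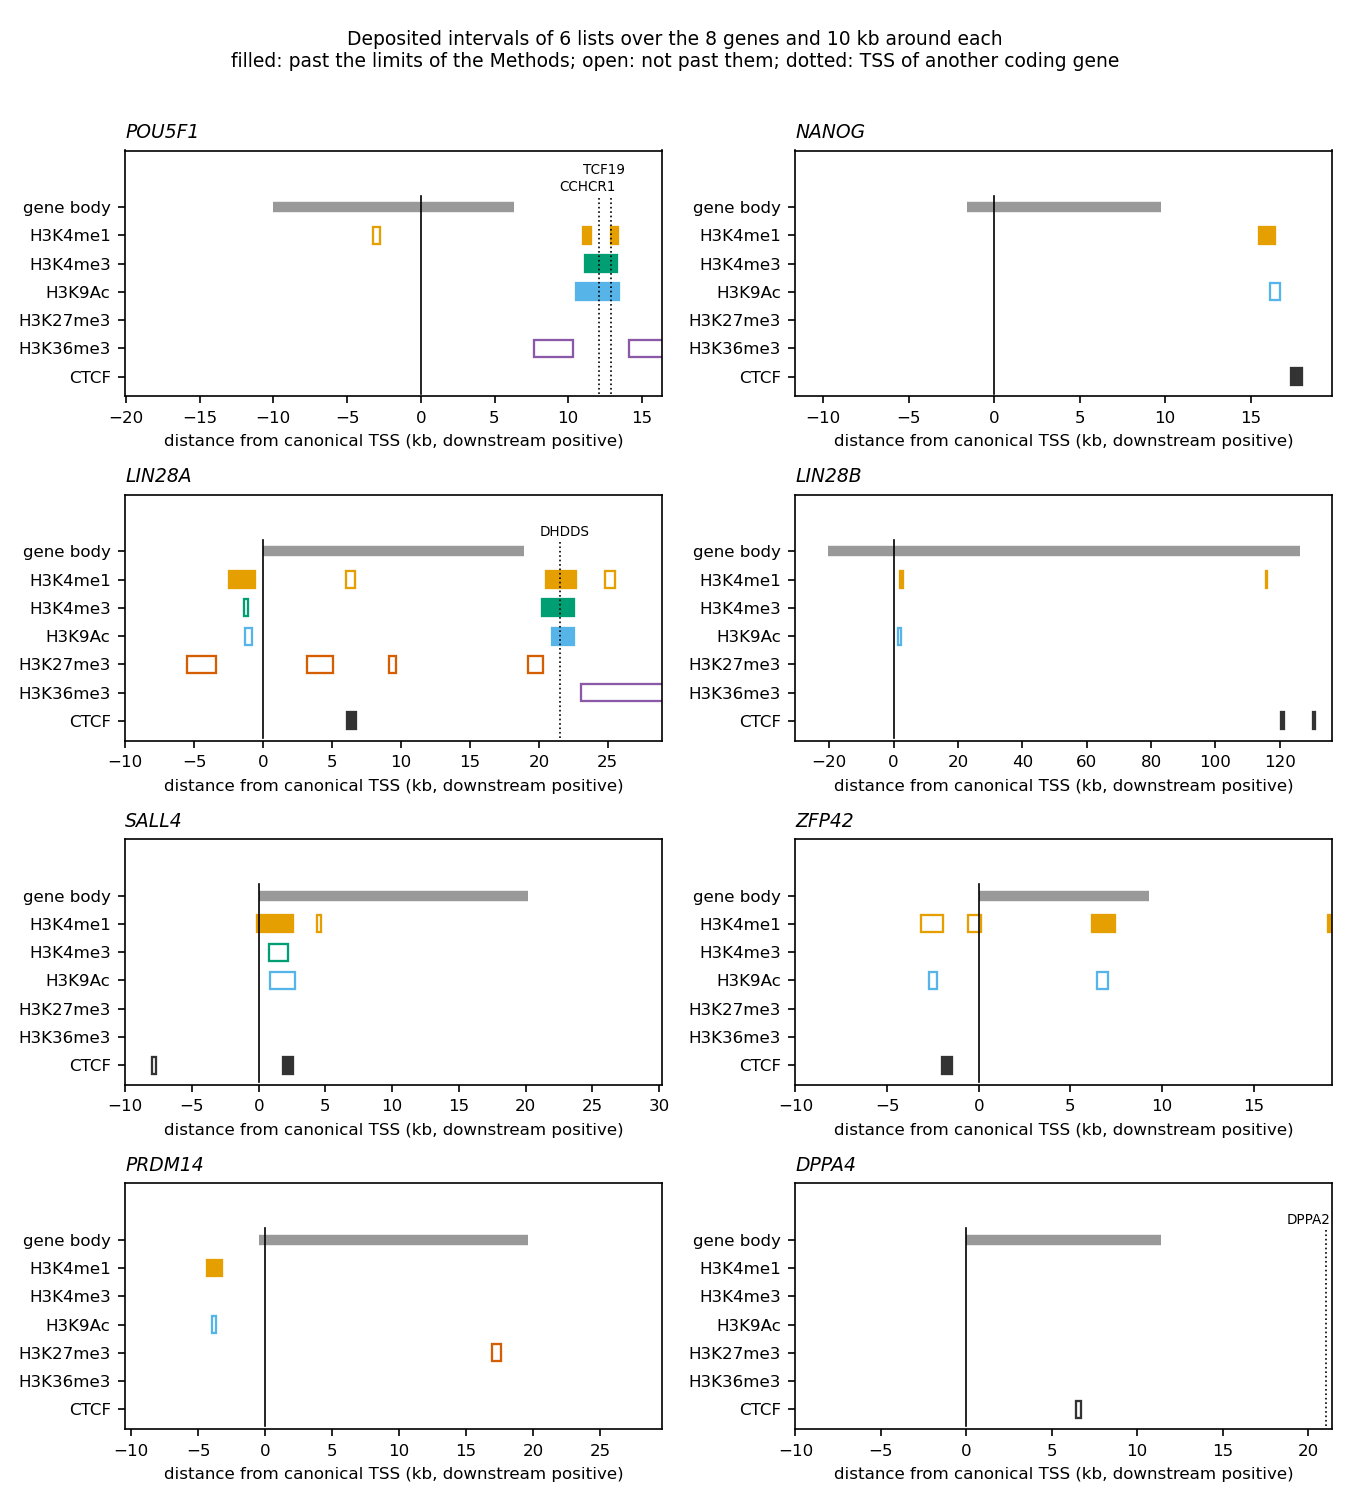
Each panel shows the window of a gene, with the distance from its TSS in kb on the x axis (downstream positive) and the gene body and the 6 marks on the y axis; boxes are deposited intervals, filled where they pass the limits of the Methods, and dotted lines are TSS of other coding genes. The filled H3K4me3 and H3K9Ac boxes lie 10.5 kb or more from the TSS of POU5F1 and LIN28A, at the TSS of neighbouring genes, and DPPA4 has a single open CTCF box.

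Read as a presence anywhere in the window, H3K4me1 was found at 7 of the 8 genes (81.3% of all coding genes) and H3K9Ac at 7 (79.1%). H3K4me3 was found at 3 genes (72.9%), CTCF at 6 (78.9%), H3K27me3 at 2 (30.0%) and H3K36me3 at 2 (65.9%). Of the 7 genes with H3K9Ac, 5 had only intervals under the limits. Past the limits the counts were 7 genes for H3K4me1 (71.9% of coding genes), 5 for CTCF (62.4%), 2 for H3K4me3 (69.1%) and 2 for H3K9Ac (68.3%). They were 0 for H3K27me3 (3.94%) and 0 for H3K36me3 (0.789%). When the intervals at the TSS of other coding genes were left out, H3K4me3 of any strength was found at 2 genes (55.3%), LIN28A and SALL4, and H3K9Ac at 6 (67.2%). H3K4me1 was then at 7 (74.7%), CTCF at 6 (74.1%), H3K27me3 at 2 (28.6%) and H3K36me3 at 2 (64.1%). Inside the gene bodies H3K4me1 lay at 5 genes (73.1%), CTCF at 4 (60.5%), H3K9Ac at 3 (72.4%), H3K27me3 at 2 (20.7%) and H3K4me3 at 1 (66.8%). The window lengths ran from 29276 bp (ZFP42) to 166717 bp (LIN28B), with a median of 47220 bp over coding genes.

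At the TSS itself, within 1 kb on each side, any H3K4me1 interval was found at 3 genes (61.2% of coding genes), which were LIN28A, SALL4 and ZFP42. H3K9Ac was found there at 2 (64.3%), LIN28A and SALL4. H3K4me3 was found at SALL4 alone among the 8 (61.6%). H3K27me3 (9.60%), H3K36me3 (6.49%) and CTCF (29.5%) were found at 0 of the 8. Any of H3K4me1, H3K4me3 and H3K9Ac was thus at 3 of the 8 TSS, where 66.6% of coding genes had an interval of the 3. With the limits, the TSS of LIN28A and SALL4 had an H3K4me1 interval (49.1%), and the counts of H3K27me3 (1.22%), H3K36me3 (0.298%) and CTCF (13.6%) were 0. LIN28A and SALL4 were also the 2 genes with an interval past the limits at the TSS of any of the 6 marks (66.1%), or of the 3 marks (64.3%). POU5F1, NANOG, LIN28B, PRDM14 and DPPA4 had no interval of the 6 lists within 1 kb of the TSS.

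The fold enrichment of an interval is the ratio over background that the authors' peak caller gave it. The 17 H3K4me1 intervals ran from 2.76 to 7.12 with a median of 3.97, beside a median of 4.02 over the whole list. The 9 H3K9Ac intervals ran from 2.91 to 9.16 with a median of 3.73 (whole list 4.16). The 4 H3K4me3 intervals ran from 3.55 to 12.8 with a median of 9.42, and each of them lay under the median of its list (18.0). For H3K4me1 the intervals at the 8 genes were thus about as strong as a typical interval of their list. The 2 strongest H3K9Ac intervals (9.16 and 8.49) lay at the TSS of neighbouring genes. The rest ran from 2.91 to 5.24, and none passed the limits. The highest H3K9Ac value per window stood at the 1.60 (PRDM14) to 24.6 (POU5F1) percentile of coding genes with such an interval. For H3K4me3 the intervals were weaker than a typical interval of their list. The 8 CTCF intervals went the other way, with a median of 11.3 and a range of 3.13 to 16.1 (whole list 7.15). The highest CTCF value per window stood at the 0.949 (DPPA4) to 80.6 (LIN28B) percentile of coding genes with such an interval. The 5 H3K27me3 intervals (2.60 to 3.0) and the 3 H3K36me3 intervals (2.91 to 3.26) lay near the medians of their lists, which were 2.93 and 2.97.

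**Figure D2:**
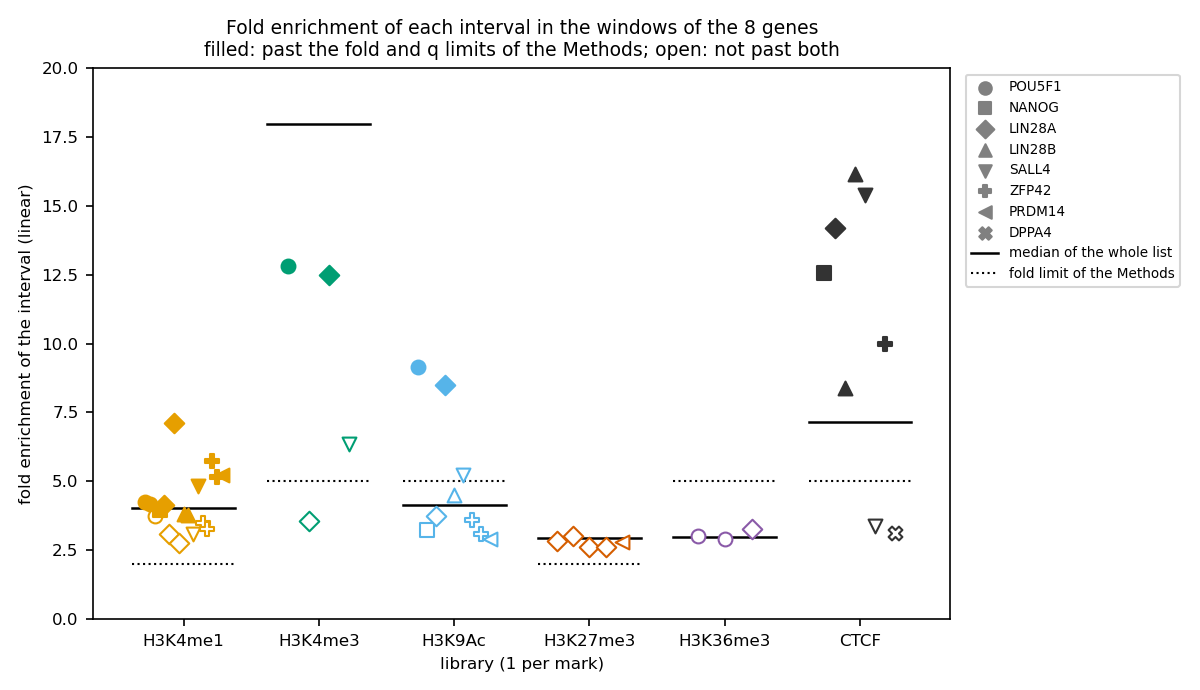
The fold enrichment (y axis, linear) of each interval in the windows of the 8 genes, by library (x axis), with a marker shape per gene, filled where the interval passes both limits; solid lines are the medians of the whole lists and dotted lines the fold limits. The 4 H3K4me3 points lie under the list median of 18.0, and 6 of the 8 CTCF points lie above the list median of 7.15.

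POU5F1 lies on the minus strand of chromosome 6 (chr6:31132114-31148508) in the gene-dense major histocompatibility region. No interval lay within 1 kb of its TSS at position 31138459. The 4 intervals past the limits in its window were all at the start sites of CCHCR1 and TCF19, a divergent gene pair downstream of it. The H3K4me3 interval there (chr6:31125162-31127307, 11.2 kb downstream of the POU5F1 TSS) was enriched 12.8-fold, with 29.7 as its −log10 q-value. The H3K9Ac interval beside it had a fold enrichment of 9.16, and 2 H3K4me1 intervals had 4.27 and 4.19. H3K36me3 lay over the bodies of CCHCR1 (3.02) and TCF19 (2.91), both under the limits. Upstream of POU5F1, from 2784 to 3223 bp before the TSS, an H3K4me1 interval of 3.74 under the limits lay over the long non-coding RNA gene PSORS1C3, inside the annotated POU5F1 gene body but outside its canonical transcript. No CTCF and no H3K27me3 interval was listed in the window, and the nearest CTCF interval began 21.7 kb upstream.

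NANOG lies on chromosome 12 (chr12:7940390-7951742, plus strand). Its gene body and the 10 kb upstream held no interval of any of the 6 marks. The 3 intervals of its window lay together 15.5 to 18.0 kb downstream of the TSS, past the end of the gene. H3K4me1 (chr12:7957503-7958410) had a fold enrichment of 3.97 and passed the limits. H3K9Ac (3.22) overlapped it and did not pass. The CTCF interval that followed (chr12:7959367-7960007) was enriched 12.5-fold, with 34.5 as its −log10 q-value, at the 83.1 percentile of its list by fold enrichment. The nearest H3K4me3 interval past the limits lay 181 kb from the NANOG TSS.

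SALL4, on the minus strand of chromosome 20 (chr20:50398870-50419060), was the gene with the most marks at its own start. H3K4me1 (chr20:50416528-50419176) reached from 116 bp upstream to 2532 bp downstream of the TSS, overlapped exon 1, and passed the limits with a fold enrichment of 4.83, at the 63.9 percentile of coding genes with H3K4me1 at the TSS. H3K4me3 lay within intron 1, from 747 to 2181 bp downstream (chr20:50416879-50418313). Its fold enrichment of 6.35 was above the limit of 5, and its −log10 q-value of 9.20 was just under the limit of 10. Among the 12428 coding genes with H3K4me3 within 1 kb of the TSS, whose median fold enrichment was 22.1, SALL4 stood at the 3.88 percentile. H3K9Ac overlapped it at 5.24-fold (−log10 q-value 6.91), at the 6.37 percentile of its TSS intervals. These 3 intervals met a CTCF interval of 15.4 (−log10 q-value 37.9) from 1814 to 2565 bp downstream, so that this was 1 of the 2 places in the windows with 4 marks. The H3K4me3 and H3K9Ac intervals lie over position 50418125, from which GENCODE starts a shorter SALL4 transcript. A weak H3K4me1 interval (3.09) lay further into intron 1 and a weak CTCF interval (3.37) about 8 kb upstream, both under the limits.

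ZFP42 lies on chromosome 4 (chr4:188916925-188926200, plus strand), far from the next strong promoter. An H3K4me1 interval lay over its TSS, from 560 bp before to 126 bp after it, with a fold enrichment of 3.29 and under the limits. No H3K4me3 or H3K9Ac interval lay there. Further upstream, between 1458 and 3140 bp before the TSS, weak H3K4me1 (3.50) and H3K9Ac (3.59) intervals were followed by a CTCF interval of 9.98 that passed the limits. The strongest H3K4me1 interval of the window, 5.74 and past the limits, covered part of exon 4, which holds coding sequence and the 3′ UTR (chr4:188923087-188924351). A weak H3K9Ac interval (3.08) lay inside it. GENCODE starts a shorter transcript at position 188923862, within both of these intervals. Downstream, 208 bases of a further H3K4me1 interval (5.17, past the limits) reached into the window.

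PRDM14 lies on the minus strand of chromosome 8 (chr8:70963886-70983928) and held 3 intervals. H3K4me1, with a fold enrichment of 5.22 and past the limits, lay 3191 to 4310 bp upstream of the TSS. A weak H3K9Ac interval (2.91) lay within it. H3K27me3 lay over intron 7, 17.0 kb downstream of the TSS, at a fold enrichment of 2.80 and under the limits (−log10 q-value 1.55). There was no CTCF interval in the window. With weak intervals included, the combination of H3K4me1, H3K9Ac and H3K27me3 without the other marks was found at 48 coding genes (0.238%), PRDM14 counted. At PRDM14 its H3K9Ac and H3K27me3 parts rest on intervals under the limits.

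DPPA4, on the minus strand of chromosome 3 (chr3:109044991-109056393), held the least of the 8. Its window contained a single interval, CTCF over exon 5 at 3.13-fold (−log10 q-value 1.99), at the 3.05 percentile of the CTCF list by fold enrichment and under the limits. The nearest H3K4me1 interval of any strength began 216 kb from the TSS and the nearest past the limits 305 kb from it. Within 100 kb on each side of the TSS 5 intervals were listed, all CTCF, against a median of 29 intervals of the 6 lists at coding genes.

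LIN28A, on chromosome 1 (chr1:26737308-26756219, plus strand), held the most intervals, 14, and all 6 marks. Next to its TSS lay a cluster of 3 marks. H3K4me1 from 2445 to 599 bp upstream had a fold enrichment of 4.13 and passed the limits. H3K9Ac, from 1304 to 787 bp upstream, had 3.73, and H3K4me3, from 1355 to 1069 bp upstream and so just outside 1 kb, had 3.55 (−log10 q-value 2.37, the 6.08 percentile of its list), and neither passed. All 3 intervals stopped upstream of the TSS. The strong promoter marks of this window belonged to the position of DHDDS, an enzyme gene of dolichol synthesis whose start lies downstream of LIN28A. There H3K4me3 was 12.5 (chr1:26757538-26759821), H3K9Ac 8.49 and H3K4me1 7.12, all past the limits. H3K36me3 of 3.26 and a further H3K4me1 interval of 2.76 lay over the body of DHDDS, both under the limits. LIN28A was also the gene with the most H3K27me3, 4 intervals of 2.60 to 3.0 spread from 5554 bp upstream to 20.3 kb downstream of the TSS, none of them past the limits. Their highest −log10 q-value was 1.66, beside a median of 1.63 over the list. A CTCF interval of 14.2 with a weak H3K4me1 interval (3.08) lay in intron 2.

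LIN28B, on chromosome 6 (chr6:105384491-105531207, plus strand), was the longest of the 8 and held 5 intervals. Around its canonical TSS at position 105404982 the nearest were H3K9Ac, 1509 to 2367 bp downstream in intron 2, and H3K4me1, 1954 to 2857 bp downstream. H3K9Ac was enriched 4.49-fold (−log10 q-value 5.23) and did not pass the limits. H3K4me1 had 3.81 and passed. A further H3K4me1 interval (3.78, past the limits) lay 116 kb downstream of the TSS in intron 3. No H3K4me3, H3K27me3 or H3K36me3 interval was listed in the 166717 bp of the window. CTCF stood over exon 4 (8.37) and again past the end of the gene (16.1, the strongest CTCF interval of the 8 genes, with a −log10 q-value of 41.1).

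The bases under the CTCF intervals are shown because their median fold enrichment (11.3) stood furthest above that of the whole list (7.15). Single CTCF intervals ran from the 3.05 (DPPA4) to the 93.1 (LIN28B) percentile of the list. CTCF recognises a long motif, of which the core was searched on both strands as CC, 3 bases of any kind, AG, 2 bases of any kind and GGC. It was present in 42.4% of all CTCF intervals (95% Wilson interval 42.0 to 42.9%), in 51.7% of those past the limits (51.1 to 52.3%) and in 8.00% of the same intervals moved by 10 kb (7.75 to 8.25%). Of the 6 CTCF intervals past the limits at these genes 5 held it, the interval downstream of NANOG being the exception. Neither of the weak intervals, at SALL4 and DPPA4, held it. A match is a description of the letters and not a measured binding site. The matches are given 5′ to 3′ with 6 bases of hg19 on each side, and the capitals mark the pattern. They lie at chr1:26743695-26743718 (minus strand, LIN28A intron 2), chr6:105525934-105525957 (minus strand, LIN28B exon 4 interval), chr6:105535641-105535664 (plus strand, downstream of LIN28B), chr20:50416860-50416883 (plus strand, SALL4 intron 1) and chr4:188915334-188915357 (minus strand, upstream of ZFP42).
LIN28A, intron 2: agttctCCACCAGATGGCgctgct
LIN28B, exon 4 interval: ttaagcCCACTAGAGGGCagcgaa
LIN28B, downstream: ttgacaCCACCAGAGGGCactctt
SALL4, intron 1: gctgggCCTCCAGGGGGCgcccgc
ZFP42, upstream: tgatctCCTCCAGTAGGCatagca
The LIN28B exon 4 interval held an overlapping match on the other strand as well (chr6:105525936-105525959). The SALL4 match was centred 1 bp from the middle of its interval, the LIN28A match 8 bp and the LIN28B matches 30 to 35 bp. The ZFP42 match lay 152 bp from the middle.

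CpG content at the start sites was compared because promoters rich in CpG carried H3K4me3 far more often in this library than promoters poor in CpG. The CpG ratio is the observed number of CpG dinucleotides over the number that the C and G content would give, in 1 kb centred on the TSS. Its median was 0.723 over coding genes, 0.794 over those with H3K4me3 within 1 kb of the TSS and 0.308 over those without. NANOG (0.296) and POU5F1 (0.362) lay in the CpG-poor range, where 10.5% and 14.4% of the coding genes within 0.05 of their ratio had H3K4me3 at the TSS. DPPA4 (0.477), LIN28A (0.504) and the canonical start of LIN28B (0.527) were intermediate, and 34.2% to 45.4% of their like genes had H3K4me3. SALL4 (0.674), ZFP42 (0.722) and PRDM14 (0.791) lay near the middle of all genes, and 77.8%, 82.3% and 86.2% of the genes of like ratio had H3K4me3. Among these 3, SALL4 had its weak H3K4me3 interval, and ZFP42 and PRDM14 had none. These shares describe sequence and list side by side, and nothing was tested with them.

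**Figure D3:**
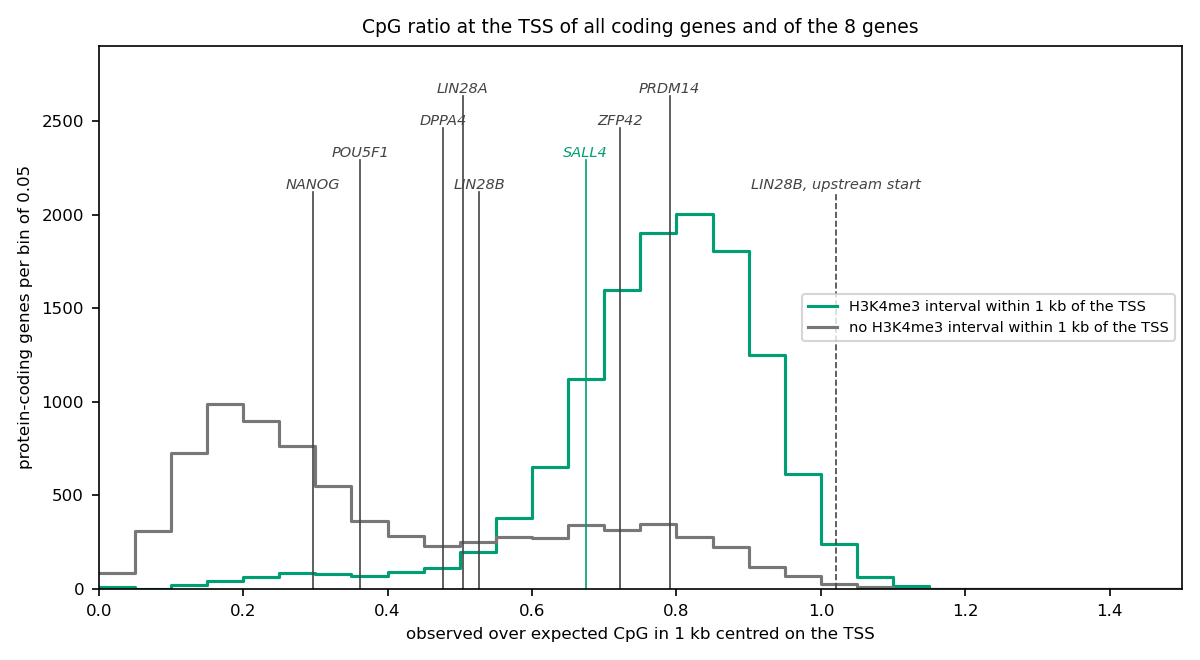
The number of protein-coding genes (y axis) per bin of the CpG ratio at the TSS (x axis), drawn separately for genes with and without an H3K4me3 interval within 1 kb of the TSS, with a vertical line for each of the 8 genes and a dashed line for the upstream RefSeq start of LIN28B. NANOG (0.296) and POU5F1 (0.362) stand among the genes without H3K4me3, whereas PRDM14 (0.791), which has none, stands close to the median of the genes that carry it (0.794).

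LIN28B has a further start in RefSeq upstream of the canonical one, and the sequences of both are shown because they differ in CpG while neither had an interval within 1 kb. The upstream start lies at position 105388840 of hg19 and its CpG ratio of 1.02 was at the 98.9 percentile of coding genes. Of the coding genes within 0.05 of this ratio 89.4% had H3K4me3 at the TSS. No interval of the 6 lists lay within 1 kb of it, the nearest H3K4me1 interval lay 18.1 kb away and the nearest H3K4me3 interval 80.7 kb away. RefSeq promoter sequences on GRCh38.p14, of 250 bases before and 50 bases from the start, were given for 4 of the 8 genes (NANOG, LIN28B, ZFP42 and DPPA4), and each matched hg19 exactly at 1 place. The upstream LIN28B sequence lies at chr6:105388590-105388889 and the canonical one at chr6:105404732-105405031 of hg19, both on the plus strand. The ZFP42 promoter (chr4:188916675-188916974, plus strand), with H3K4me1 over it, is given beside them. The capitals mark CpG dinucleotides.
LIN28B, upstream start: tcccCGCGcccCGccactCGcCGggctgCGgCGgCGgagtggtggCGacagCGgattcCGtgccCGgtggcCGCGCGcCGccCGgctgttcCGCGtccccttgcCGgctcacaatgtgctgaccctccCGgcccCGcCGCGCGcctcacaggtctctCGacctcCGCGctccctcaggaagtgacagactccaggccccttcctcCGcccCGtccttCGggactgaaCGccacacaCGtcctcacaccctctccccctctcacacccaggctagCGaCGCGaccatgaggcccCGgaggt
LIN28B, canonical start: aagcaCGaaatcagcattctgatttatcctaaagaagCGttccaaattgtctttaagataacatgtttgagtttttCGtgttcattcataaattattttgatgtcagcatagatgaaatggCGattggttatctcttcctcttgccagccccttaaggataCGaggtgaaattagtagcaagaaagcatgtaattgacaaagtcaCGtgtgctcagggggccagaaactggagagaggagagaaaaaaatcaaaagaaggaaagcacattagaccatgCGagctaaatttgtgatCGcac
ZFP42: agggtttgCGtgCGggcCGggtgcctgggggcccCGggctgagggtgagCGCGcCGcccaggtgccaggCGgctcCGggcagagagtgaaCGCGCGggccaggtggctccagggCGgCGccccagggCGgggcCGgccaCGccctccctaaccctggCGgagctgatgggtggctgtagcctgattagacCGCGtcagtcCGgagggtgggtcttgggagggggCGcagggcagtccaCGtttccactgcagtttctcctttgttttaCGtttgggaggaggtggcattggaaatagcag
The upstream LIN28B sequence contains 37 CpG, the canonical one 8, and the ZFP42 promoter 24. The promoters of NANOG and DPPA4 contain 5 each, and the median over all 35116 RefSeq promoters was 14. The octamer ATGCAAAT, the classical site of POU factors, was searched on both strands of the 5 promoter sequences of these genes and was in 0 of them, beside 1.77% of all promoters. CATTGTT, a site of SOX factors, was also in 0 of the 5 (3.33% of all promoters). Only exact matches were searched, so a site that differs by a base would be missed. At such shares 0 of 5 is the usual outcome for any promoters. The result says only that these letters are not in these windows.

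The distance from each TSS to the nearest H3K4me3 interval past the limits set the 8 genes in an order. It was 11.2 kb for POU5F1, 20.2 kb for LIN28A and 34.1 kb for SALL4, then 96.8 kb for LIN28B and 181 kb for NANOG. For PRDM14 it was 330 kb, for ZFP42 742 kb and for DPPA4 747 kb. Over all coding genes the median of this distance was 0 kb and the 90th percentile 190 kb. PRDM14, ZFP42 and DPPA4 thus lay farther from such an interval than 9 in 10 coding genes, at the 94.0, 97.7 and 97.7 percentiles. The count of intervals of all 6 lists within 100 kb of the TSS gave another order, from 5 at DPPA4, 7 at LIN28B and 11 at NANOG through 17 at ZFP42, 21 at SALL4 and 28 at PRDM14 to 42 at POU5F1 and 50 at LIN28A. The median over coding genes was 29. The nearest H3K4me3 interval past the limits lay within 1 kb of the TSS of CCHCR1 and TCF19 for POU5F1 and of DHDDS for LIN28A. The other such genes were ATP9A (SALL4), HACE1 (LIN28B), NCOA2 (PRDM14) and CIP2A with DZIP3 (DPPA4). For NANOG and ZFP42 there was none. How often this holds over all coding genes was not computed, and 59.1% of them had H3K4me3 past the limits at their own TSS. Without the limits, the nearest H3K4me3 interval of LIN28A was the weak one 1069 bp upstream of its own TSS, and that of SALL4 the one in its intron 1.

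**Figure D4:**
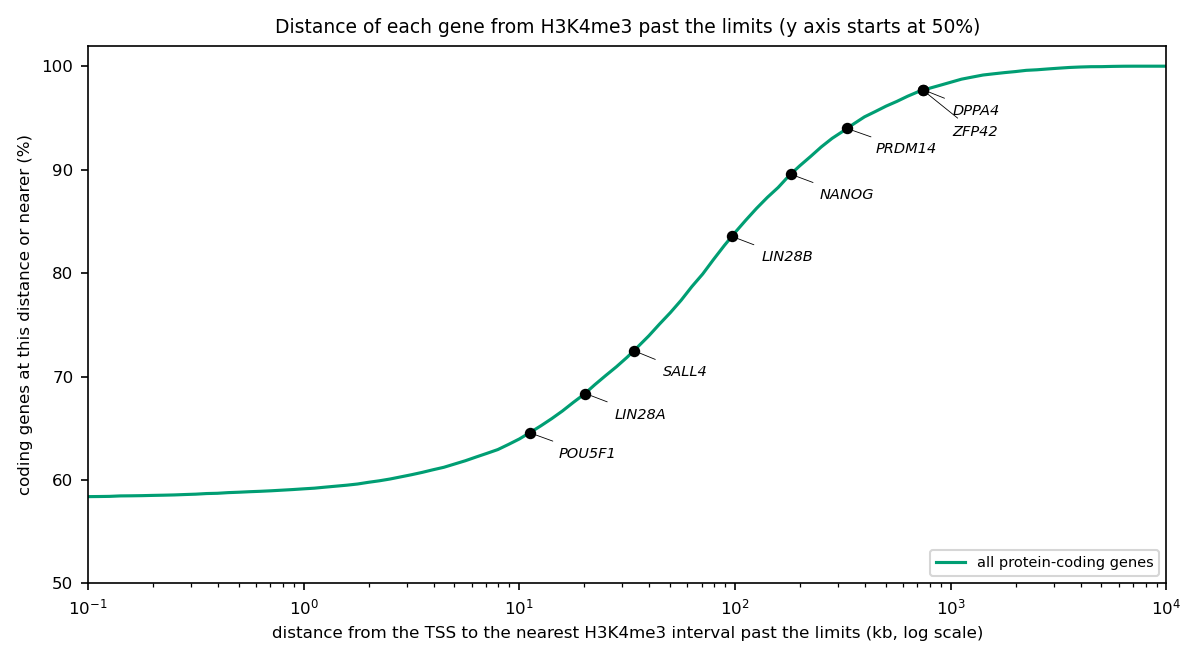
The distance from the TSS to the nearest H3K4me3 interval past the limits (x axis, kb, log scale) against the percent of protein-coding genes at that distance or nearer (y axis, starting at 50%), with a point for each of the 8 genes. The points run from 11.2 kb at POU5F1 to 747 kb at DPPA4, and PRDM14, ZFP42 and DPPA4 lie past the 90th percentile of 190 kb.

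The nearest H3K27me3 interval past the limits lay 233 kb from the TSS of PRDM14, 238 kb from that of SALL4 and 415 kb from that of NANOG, all closer than the median of 892 kb over coding genes. For POU5F1 it lay 1628 kb away, for ZFP42 1899 kb, for LIN28A 2076 kb, for DPPA4 4837 kb and for LIN28B 5207 kb. PRDM14 was the gene of the 8 whose nearest H3K27me3 interval past the limits lay closer than its nearest H3K4me3 interval past them. Of the whole H3K27me3 list 1552 of 55270 intervals (2.81%) passed the limits. These distances thus depend on how sparse such intervals are. Measured as covered length, H3K27me3 of any strength took 1.51% of the bases of the 8 windows and 7.16% of hg19, with a median of 0% over coding gene windows. H3K36me3 took 2.60% of the windows, all of it at the neighbours of POU5F1 and LIN28A, beside 6.61% of hg19 and a median of 11.0% over coding gene windows. H3K36me3 lay in the gene body of 0 of the 8 genes, where 56.3% of coding genes had such an interval.

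By the pattern of marks in the window, weak intervals included, NANOG, LIN28B and ZFP42 shared the same combination, H3K4me1 with H3K9Ac and CTCF alone. It was found at 315 coding genes (1.56%), the 3 genes included. The combination at SALL4 was found at 926 genes (4.59%) and that at POU5F1 at 1379 (6.84%). All 6 marks, as at LIN28A, were found at 2076 (10.3%). CTCF alone, as at DPPA4, was found at 547 (2.71%), each gene itself counted. Likeness in level was measured as the Euclidean distance over the 6 percentile ranks of the highest fold enrichment in the window. The genes nearest to each were TCF19 and USP11 for POU5F1, TMEM30B and MMP16 for NANOG, NEK11 and INPP4B for LIN28A, PNMA8B and GABRR3 for LIN28B, NOX5 and NIBAN1 for SALL4, ODF3L1 and LIPK for ZFP42, and C4orf45 and KLHL40 for PRDM14. TCF19 was at distance 0 from POU5F1 because their windows take in the same intervals. The other nearest distances were 1.91 (NANOG) to 8.47 (LIN28A), with medians over all coding genes of 96.6 to 126 for the 7 genes.

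Other genes of the same networks were read through lists of genes, by their TSS. Of 25 other pluripotency genes 8 had an H3K4me3 interval within 1 kb of the TSS (61.6% of all coding genes), and 7 of these passed the limits (59.1%). The highest was at TET1, which encodes a DNA demethylase (32.3), and the lowest at NR5A2, a nuclear receptor gene (6.25). SOX2, the partner of POU5F1, had no H3K4me3 at the TSS, with weak H3K4me1 (3.69) and H3K9Ac (3.19) there. H3K27me3 past the limits, at the TSS of 1.22% of all coding genes, lay at that of OTX2 (3.85), a homeobox gene. It also lay at the TSS of ESRRB (3.93), an orphan receptor gene that also had H3K4me3 (10.1). Of 12 oncofetal genes and let-7 targets 7 had H3K4me3 at the TSS, 6 past the limits, from GPC3 (5.99) to IGF2BP2 (31.9). HMGA2, a classical let-7 target, had 20.2. IGF2BP1 (5.70) and CEACAM5 (3.95) had H3K27me3 past the limits at the TSS and no H3K4me3. Of 7 paralogs of the members 4 had H3K4me3 at the TSS, from PRDM1 (9.23) to POU2F1 (29.3), and SALL1, SALL2 and SALL3 had none there. SALL2 had an H3K4me3 interval of 22.1 elsewhere in its window. Of 14 intestinal transcription factor genes 9 had it, all past the limits, from ASCL2 (7.60) to CDX2 (31.6). The 8 genes themselves had it at 1 of 8. The counts of the oncofetal, paralog and intestinal lists were near the share of all coding genes. The lists differ in size and were not tested against each other.

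**Figure D5:**
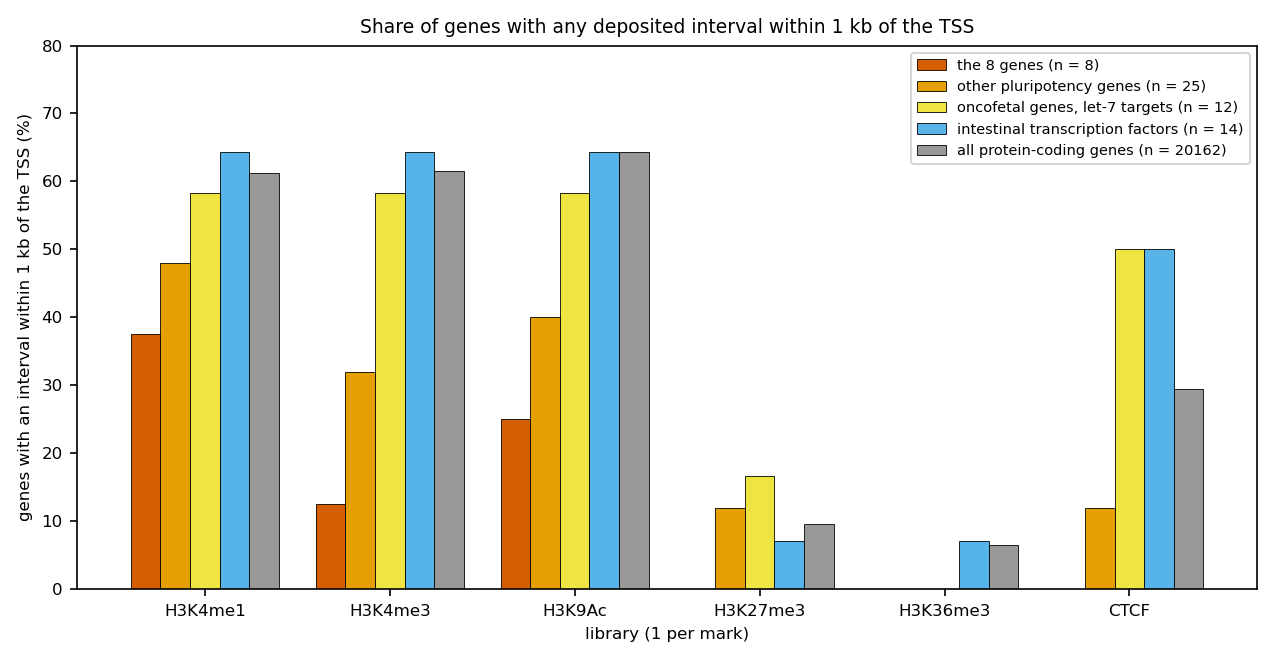
The percent of genes with any deposited interval within 1 kb of the TSS (y axis) for each library (x axis), with bars for the 8 genes, other pluripotency genes, oncofetal genes and let-7 targets, intestinal transcription factors and all protein-coding genes. For H3K4me3 the bar of the 8 genes stands for 1 gene, SALL4, beside 61.6% of all coding genes, and for H3K27me3, H3K36me3 and CTCF it stands at 0.

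Shared sequence between copies can place reads of one gene at another. POU5F1, NANOG, LIN28A, SALL4 and DPPA4 have annotated pseudogenes, most of them processed. None of the 46 intervals and 8 TSS regions, 54 in all, had a further copy in hg19 at 95% identity over at least 50% of its length. Shorter shared stretches were not searched. Processed pseudogenes lack introns and promoters, whereas NANOGP1, POU5F1P6 and SALL4P5 are annotated as unprocessed. Whether reads were misplaced was thus not tested.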

How the data were processed

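The deposited broad peak lists of 6 HCT116 ChIP libraries, 1 per mark, were read. For alignment to hg19 the authors used BWA 0.7.12. Broad intervals were called with MACS2 (broad cutoff 0.1) according to the paper's methods, whereas the submitters' processing notes name MACS 1.4.2. The lists, as deposited, hold intervals under the limits of the Methods. Per deposited interval the fold enrichment is a linear ratio over background, the p-value and q-value are given as −log10, and the display score was not used. Depth is unknown from the lists and can change how many intervals are called and how wide they are. 0 columns of other samples were present.

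Genes came from GENCODE 44 on hg19. The TSS was that of the canonical transcript, which 19881 of 20162 coding genes have, and otherwise the 5′ end of the gene. Overlap required 1 bp. CpG ratios and motifs were read from hg19 and RefSeq, and copies were searched with minimap2 2.31. Scripts ran under Python 3.11.15 with pandas 2.3.3, pysam 0.24.0, numpy 2.4.6, matplotlib 3.10.9 and scipy 1.17.1, and with samtools 1.23.1. The overlap step was tested on simulated data, where 200 of 200 planted windows among 500 genes were recovered.

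All 8 genes were named with every interval of their windows. From each list the genes with the highest and lowest H3K4me3 fold enrichment at the TSS and those with H3K27me3 past the limits there were named, and the 2 nearest genes by likeness. Neighbours were named where their TSS lay within 1 kb of an interval. PSORS1C3, SOX2, HMGA2, VIL1, SALL1, SALL2 and SALL3 were named after their values were seen. The genes and lists were chosen with earlier results of these data known. No test was made, since each mark has 1 library. Wilson intervals cover counting error only. Alternatives were the limits of the Methods, the gene body alone, 25 kb on each side, 50% overlap, 2 kb at the TSS, the TSS of any transcript, merging of intervals within 1 kb, all annotated genes, a window of 300 bp for the CpG ratio and, chosen after seeing the data, leaving out intervals at the TSS of other coding genes. H3K27Ac, ENCODE and RNA-seq data were not analysed here.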

Additional observations from a re-analysis of the deposited data

How the results depend on the processing

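No paired analysis was possible because there is only 1 library for any antibody. With all deposited intervals as the start, the limits of the Methods moved the counts most. They left 11 of 17 H3K4me1 intervals, 2 of 4 H3K4me3 and 2 of 9 H3K9Ac intervals, and 0 of 5 H3K27me3 and 0 of 3 H3K36me3 intervals. In genes, they left 2 with H3K9Ac in the window and 0 with H3K27me3 or H3K36me3, and 0 with H3K4me3 or H3K9Ac at the TSS. The gene body alone left H3K4me3 at 1 gene, H3K9Ac at 3 and H3K36me3 at 0, and an overlap of 50% left H3K36me3 at 1. A TSS window of 2 kb gave H3K4me3 at 2 genes and CTCF at 2, and the TSS of any transcript gave CTCF at 2. A CpG window of 300 bp gave 0.716 at LIN28B, 0.547 at SALL4 and 0.355 at DPPA4. With all 64440 annotated genes as background, H3K4me3 was in 40.7% of windows and at 27.5% of TSS. Windows of 25 kb, merging within 1 kb and leaving out intervals at other coding TSS moved none of the counts by more than 1.5 times. The depth is unknown, and of the whole H3K27me3 and H3K36me3 lists 2.81% and 0.225% passed the limits, so the absence of these marks past the limits at a gene says little.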

Other observations

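The genes of the let-7 microRNAs, whose maturation LIN28A and LIN28B block, were read at the annotated starts of their precursors. Of 12 let-7 precursors 11 lay within 1 kb of an H3K36me3 interval, and H3K36me3 was in the window of the same number. Such an interval was in 40.5% of the windows of all annotated genes and in 56.3% of coding gene bodies. At the TSS, where this mark is scarce, the shares were 6.49% of coding genes and 10.2% of all annotated genes. The median fold enrichment was 3.97 and the highest 4.18 (MIRLET7A3 and MIRLET7B, in the same interval), and none of these passed the limits of the Methods. MIRLET7C was the exception, with no interval of the 6 lists in its window. H3K27me3 was in the window of 0 of the 12 (27.4% of the windows of all annotated genes). MIRLET7I had H3K4me3 (29.2) and H3K9Ac (24.0) within 1 kb of the annotated start of its precursor, both past the limits. MIRLET7A1 and MIRLET7F1, which are neighbours, shared an H3K4me3 interval of 33.3 in their windows. Precursors are cut from longer host transcripts, so their annotated starts are not start sites of transcription. The TSS shares are therefore not a like measure for them. Neighbouring precursors also share intervals, so they do not count as separate cases. The precursors named here were chosen after their values were seen.

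The pseudogenes and retrogenes of the 8 genes were also read, chosen after the data were seen. They were 27 entries of the annotation, named after POU5F1, NANOG, LIN28A, SALL4 and DPPA4. An interval of any list lay in the body of 6 of them, and H3K4me3 lay in the body of 0. Apart from POU5F1B, these bodies are short, from 286 bp (NANOGP3) to 6328 bp (NANOGP1). No share was computed for features of like length, so the counts are not read as high or low. POU5F1B, a retrogene of POU5F1 on chromosome 8 that GENCODE annotates as coding with a body of 97884 bp, held 6 H3K4me1, 4 H3K9Ac, 4 H3K36me3 and 1 CTCF interval in its body. The highest fold enrichment was 5.78 for H3K4me1, 4.34 for H3K9Ac, 2.72 for H3K36me3 and 10.3 for CTCF. The CTCF interval and 3 of the 7 H3K4me1 intervals in the POU5F1B window passed the limits. None of its H3K9Ac and H3K36me3 intervals did. No H3K4me3 or H3K27me3 interval was listed in its window. NANOGP6 held H3K4me1 (7.21, past the limits), H3K9Ac (2.83) and H3K36me3 (4.97) over its body, the last 2 under the limits. NANOGP8, which is also annotated as coding, held none of the marks in its body. A CTCF interval of 12.1, past the limits, lay in the NANOGP8 window.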
